A study of Mus musculus with 18 samples.

Results

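Integrin genes were followed in satellite cells, the stem cells of skeletal muscle, sorted before injury or 12 h and 48 h after injury of the muscle. The genes were all those to which the annotation of the array gives a single symbol that starts with Itga or Itgb followed by letters or digits, 29 of 18194 genes, measured by 65 of 45101 probe sets. Each gene was represented by its probe set with the highest mean. Of the 29 genes, 24 encode integrin subunits, and the other 5 carry a matching name (Itgb2l, Itgbl1, Itgb1bp1, Itgb1bp2 and Itgb3bp). The cells came from 6 groups. Sdc4-/- mice, which lack syndecan-4 through a homozygous deletion, had a C57Bl/6 background, and wild type (WT) mice were C57Bl/6xDBA2 hybrids, so that genotype and strain differed together and their effects cannot be told apart. All mice were female, with an age of 3 to 6 months in the labels and of 3 months in the methods of the array experiment. Tibialis anterior muscles were left uninjured (0 h) or injured with 1.2% barium chloride, which destroys muscle fibres, and cells were sorted on syndecan-3 immunoreactivity. RNA equal to that of 5000 cells was amplified in successive T7 rounds and hybridized to Affymetrix mouse genome arrays, 3 per group. The study removed 1 WT uninjured array without numbering it in the text. It was taken here to be replicate 3, which leaves 2 WT uninjured arrays and 17 arrays in all. Whether the replicates came from separate animals was not stated, so p-values measure only the spread between these samples.

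Integrins are receptors made of an alpha and a beta subunit that bind matrix proteins or receptors on other cells, and they connect through talins and kindlins to the actin cytoskeleton. The alpha subunit largely sets the ligand: alpha3, alpha6 and alpha7 bind laminins, alpha1, alpha2 and alpha10 bind collagens, and alpha5, alpha8, alphav and alphaIIb bind proteins with an Arg-Gly-Asp (RGD) motif, such as fibronectin. In muscle, alpha7 with beta1 links fibres and satellite cells to laminin, while beta2 and beta7 and their partners belong to leukocytes. Syndecan-4 is a co-receptor for fibronectin that acts beside integrins in focal adhesions.

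Values are log2 GCRMA values, in which about 2 to 3 is the background of an array, and no detection calls came with them. A group mean of 5 or more is used below as a descriptive level. Levels were not compared between probe sets. Markers were checked on the same arrays. Sdc3, the gene of the sort marker, averaged 6.23, 5.99 and 6.79 at 0, 12 and 48 h in Sdc4-/- cells and 5.50, 4.78 and 5.92 in WT cells. Pax7, the transcription factor of satellite cells, had group means of 2.47, 2.53 and 2.40 in Sdc4-/- cells, near background, and of 4.87, 2.60 and 2.46 in WT cells. The 10 satellite cell markers were Pax7, Myf5, Cdh15, Chodl, Calcr, Met, Vcam1, Sdc3, Cxcr4 and Cd34. Of these, 3, 4 and 4 had a mean above 5 in Sdc4-/- cells and 4, 0 and 3 in WT cells. Sdc4, the deleted gene, averaged 4.20, 4.71 and 4.92 in Sdc4-/- cells and 4.64, 4.03 and 7.66 in WT cells, and where its probes lie relative to the deletion was not given in the sources used here. All 10 macrophage markers (Csf1r, Cd68, Adgre1, Cd14, Mrc1, Lyz2, C1qa, C1qb, Fcgr1 and Ctss) had a mean above 5 at 48 h in both genotypes, and 9, 9 and 10 did so in Sdc4-/- cells against 8, 4 and 10 in WT cells. Hybridization controls are added to each sample. Their array means were 9.72 to 10.30, 9.71 to 12.33 and 8.74 to 10.43 at 0, 12 and 48 h in Sdc4-/- arrays. In WT arrays they were 7.86 to 8.94, 13.54 to 14.30 and 11.68 to 12.50. Probe sets above 5 numbered 7137 to 7864, 5076 to 5565 and 7294 to 7723 at 0, 12 and 48 h in Sdc4-/- arrays. In WT arrays they numbered 7213 to 7620, 2832 to 3982 and 5123 to 5564, so both genotypes had fewer at 12 h than when uninjured. In a sorted population fewer cells of a type and less RNA per cell cannot be told apart.

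The promoters of the leukocyte subunits with a group mean of at least 5 are shown, since Itgam and Itgax are among the genes called below. They come from RefSeq on build GRCm38.p6, run 5′ to 3′ over 300 bases across the start of the gene, and were matched by symbol, as were those of 21 of the 29 genes. Itgb2 was not among the matched genes. Capitals mark GAGGAA on either strand (reverse TTCCTC), the core of sites bound by PU.1, a transcription factor of myeloid cells. Itgam lies at chr7:128062390-128062689 on the plus strand, Itgax at chr7:128129300-128129599 on the plus strand and Itgb7 at chr15:102231886-102232185 on the minus strand.
Itgam: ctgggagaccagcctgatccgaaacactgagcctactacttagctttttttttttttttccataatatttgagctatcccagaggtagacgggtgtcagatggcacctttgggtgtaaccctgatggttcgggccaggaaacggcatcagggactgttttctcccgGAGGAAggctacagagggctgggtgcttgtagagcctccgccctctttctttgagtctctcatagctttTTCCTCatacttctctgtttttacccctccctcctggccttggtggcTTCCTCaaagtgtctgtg
Itgax: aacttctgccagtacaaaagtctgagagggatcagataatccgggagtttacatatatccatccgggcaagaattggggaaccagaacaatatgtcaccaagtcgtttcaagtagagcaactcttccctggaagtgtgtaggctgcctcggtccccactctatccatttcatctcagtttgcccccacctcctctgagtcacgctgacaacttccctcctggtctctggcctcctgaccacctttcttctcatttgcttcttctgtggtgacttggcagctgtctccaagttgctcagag
Itgb7: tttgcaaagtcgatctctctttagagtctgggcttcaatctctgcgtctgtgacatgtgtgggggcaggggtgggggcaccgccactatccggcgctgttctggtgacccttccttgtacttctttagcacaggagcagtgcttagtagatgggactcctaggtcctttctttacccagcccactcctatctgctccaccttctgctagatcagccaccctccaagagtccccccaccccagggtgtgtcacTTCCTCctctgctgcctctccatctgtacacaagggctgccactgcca
The motif occurred 3 times in the Itgam promoter, 0 times in that of Itgax and 1 time in that of Itgb7. It was present in 9 of 23 promoters of the matched integrin genes, beside 28.3% of 32851 promoters of the same length, and no use of these sites was measured here.

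Across the groups 14 of the 29 genes reached a mean of 5 in at least 1 group. These were the leukocyte genes Itgb2, Itgb7, Itgam and Itgax, the matrix receptors Itga1, Itga4, Itga5, Itga6, Itga8, Itgav, Itgb1 and Itgb5, and the name-matched genes Itgbl1 and Itgb1bp1. In Sdc4-/- cells 9, 7 and 10 genes were at that level at 0, 12 and 48 h, and in WT cells 9, 3 and 8. Itga6 and Itgav were at that level in all 6 groups. The map of the values by array shows these genes against the remaining 15, whose group means lay between 2.29 and 4.94.

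**Figure D1:**
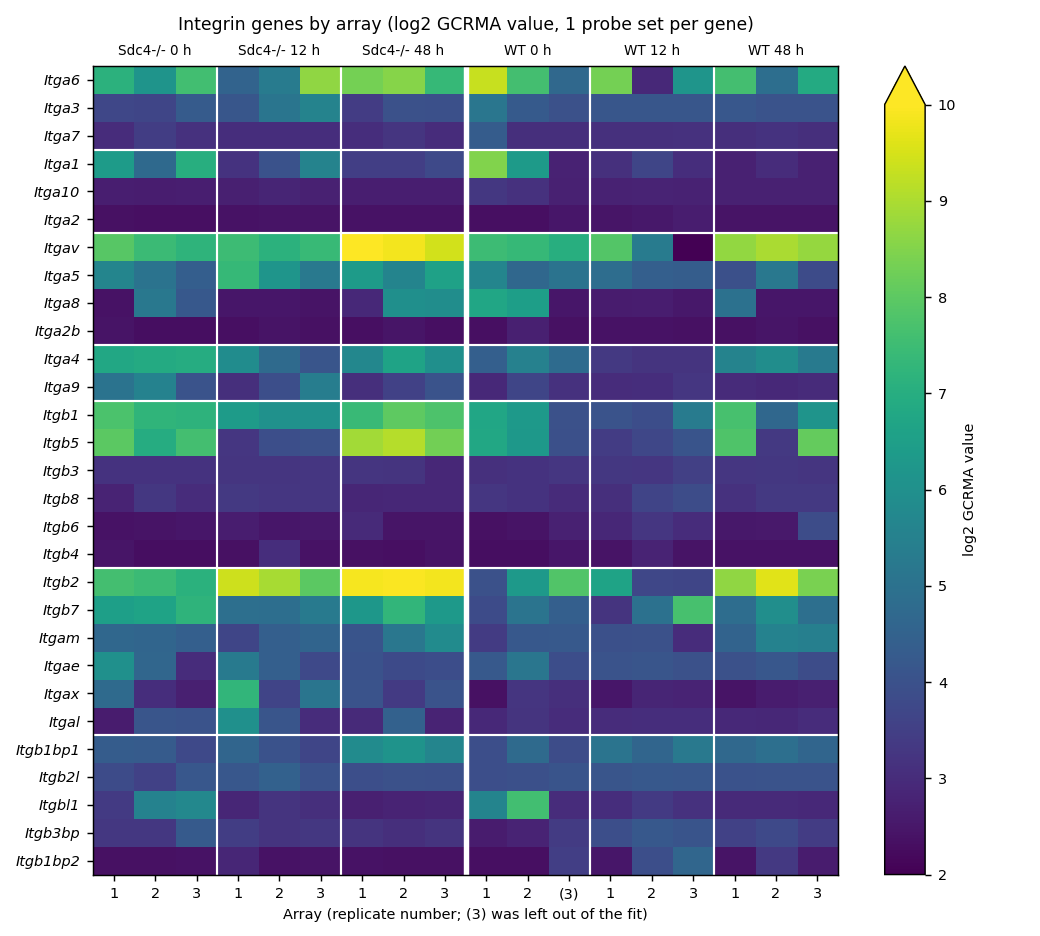
Log2 GCRMA value of each of the 29 genes (vertical axis, 1 probe set per gene) in each array (horizontal axis, by genotype, time and replicate), with colour for the value. Itgb2 at 48 h lies between 9.87 and 9.97 in Sdc4-/- and between 8.40 and 9.65 in WT arrays, and WT 12 h arrays have 3 genes with a group mean of 5 or more.

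Which integrin genes changed after injury, and whether genotypes differed, was tested in 11 comparisons with 1 limma fit over the 6 groups. A gene was called where its p-value, adjusted by the Benjamini-Hochberg method across the whole array, was under 0.05. The comparisons share arrays, so they are not independent of each other. Over all probe sets the WT 12 h arrays correlated with each other at 0.66 to 0.75, and arrays of the other groups in the fit at 0.88 to 0.97. The removed replicate 3 correlated with the other WT uninjured arrays at 0.74 and 0.78. The fit gives all groups the same spread, so its standard errors do not show that WT 12 h arrays varied more. At 12 h in WT cells, relative to uninjured cells, 3 of 29 integrin genes were called higher and 6 lower (10.3% and 20.7%), against a background over all genes of 19.6% higher and 20.8% lower. All 3 genes called higher had both group means below 5. The median log2 difference of the integrin genes was -0.19, and that of all genes 0.09. At 48 h in WT cells 2 genes were called higher and 3 lower than uninjured (background 5.47% and 9.39%, medians -0.11 and 0.10), and relative to 12 h 4 were higher and 0 lower (background 9.27% and 5.9%, medians -0.08 and -0.06). With the array mean of the hybridization controls as a covariate, 0, 1 and 0 genes were called in these 3 comparisons. That mean did not overlap between times in WT arrays, nor between genotypes at the same time. The covariate thus varied with group, and a call lost with it, here and below, cannot tell an array effect from a group effect.

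In Sdc4-/- cells, at 12 h relative to uninjured cells, 0 integrin genes were higher and 2 lower (background 1.48% and 7.23%, medians -0.03 and 0.04). At 48 h 1 was higher and 0 lower than uninjured (background 2.65% and 2.59%, medians 0.02 and 0.02), and 2 were higher and 0 lower than at 12 h (background 7.61% and 0.819%, medians -0.07 and -0.03). Between genotypes, Sdc4-/- minus WT, 2 genes were higher and 1 lower in uninjured cells (background 1.32% and 2.96%, medians 0.04 and 0.02). At 12 h 4 were higher and 2 lower (background 8.68% and 10.4%, medians 0.05 and -0.08), and at 48 h 1 was higher and 0 lower (background 4.7% and 1.43%, medians -0.01 and -0.06). For the difference between genotypes in the change itself, 1 gene was called higher and 1 lower at 12 h (background 6.32% and 5.7%, medians 0.17 and -0.09), and likewise 1 and 1 after 48 h (background 3.64% and 1.03%, medians 0.0031 and -0.07). Scaling all arrays to a common 75th percentile gave 8 higher and 7 lower genes at 12 h in WT cells, 6 and 3 at 48 h, 10 and 2 for Sdc4-/- 12 h against uninjured, 2 and 5 for Sdc4-/- 48 h against 12 h, and 2 and 4 between genotypes at 48 h. That scaling moved the median of all genes by up to 0.34.

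**Figure D2:**
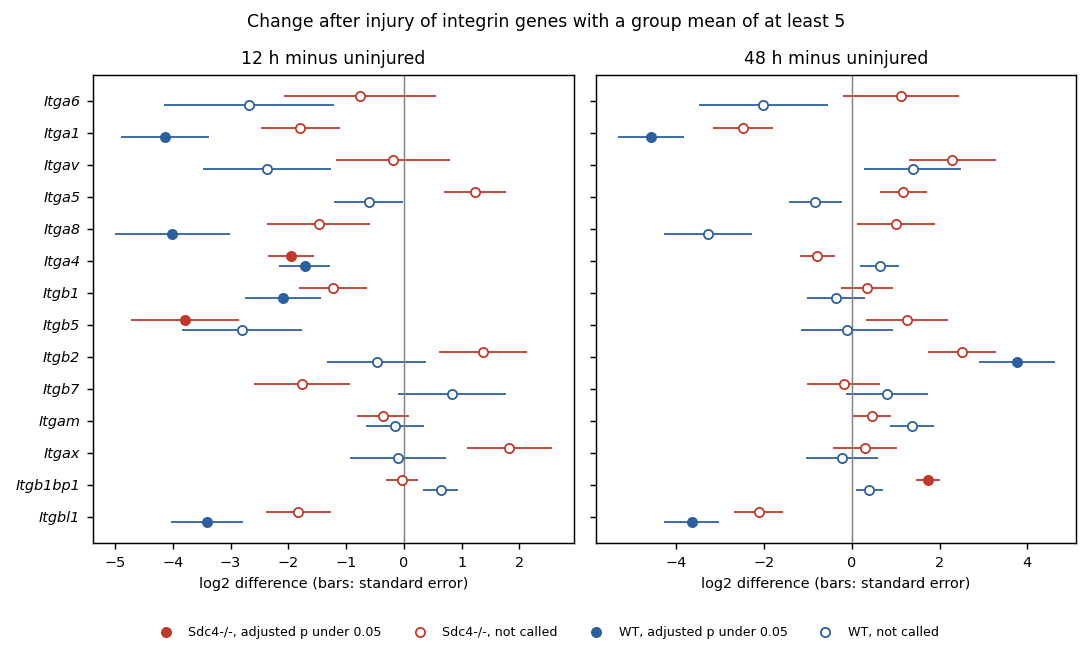
Log2 difference from uninjured cells of the same genotype at 12 h and 48 h (horizontal axis, bars are standard errors) for the 14 integrin genes with a group mean of at least 5, with filled points where the adjusted p was under 0.05. At 12 h Itga1, Itga8, Itgbl1, Itgb1 and Itga4 were called lower in WT cells, and Itgb5 and Itga4 in Sdc4-/- cells.

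Of the leukocyte subunits Itgb2 differed between genotypes at 12 h and rose at 48 h in WT cells. It encodes beta2 (CD18), the partner of the alpha subunits of LFA-1 and Mac-1. Itgb2 had values of 7.61, 7.47 and 7.11 at 0 h, 9.39, 8.94 and 7.98 at 12 h and 9.88, 9.97 and 9.87 at 48 h in Sdc4-/- arrays. WT arrays had 3.97 and 6.33 at 0 h, 6.65, 3.70 and 3.68 at 12 h and 8.68, 9.65 and 8.40 at 48 h. Every Sdc4-/- 12 h array was above every WT 12 h array, and every WT 48 h array above the WT arrays of the other times. The difference between genotypes at 12 h was 4.09 (standard error 0.77, adjusted p = 0.003), a 17-fold higher level in Sdc4-/- cells. It kept its call with each array left out and was lost in a fit of only the groups compared (adjusted p = 0.0875) and with the hybridization-control covariate (2.39, adjusted p = 0.492). In uninjured cells the difference was 2.25 (adjusted p = 0.238) and at 48 h 0.99 (adjusted p = 0.523). Whether the 12 h difference exceeded the uninjured difference was tested as the difference in change, 1.84 (standard error 1.15, adjusted p = 0.319).

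Within WT cells Itgb2 rose at 48 h by 4.23 relative to 12 h (standard error 0.77, adjusted p = 0.00334) and by 3.76 relative to uninjured cells (standard error 0.86, adjusted p = 0.0135). The call against uninjured cells was lost without WT uninjured replicate 1 (2.58, adjusted p = 0.168) and with all 18 arrays (2.87, adjusted p = 0.168), where the removed replicate 3 had 7.84. Both calls were lost in a fit of only the groups compared (adjusted p = 0.125 against 12 h and 0.0814 against uninjured cells), after a further quantile normalization (0.0653 and 0.0793) and with the hybridization-control covariate (0.122 and 0.0902). The Sdc4-/- 48 h change from uninjured cells was 2.51 (adjusted p = 0.0991), with no overlap between the groups, and the 12 h change 1.37 (adjusted p = 0.345).

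Itgam, which encodes alphaM (CD11b), the beta2 partner on macrophages and neutrophils, was dimmer. Its values were 4.69, 4.62 and 4.43 at 0 h, 3.67, 4.43 and 4.58 at 12 h and 4.07, 5.16 and 5.87 at 48 h in Sdc4-/- arrays, against 3.41 and 4.19, then 3.95, 3.97 and 3.02, then 4.53, 5.55 and 5.44 in WT arrays. The WT 48 h arrays stood above all other WT arrays, while Sdc4-/- groups overlapped. Itgam rose at 48 h relative to 12 h in WT cells by 1.53 (standard error 0.45, adjusted p = 0.0441). The call was lost if replicate 2 or 3 of either time was left out (1.22 to 1.69, adjusted p = 0.0616 to 0.135) and in 5 of 12 other settings, with adjusted p-values up to 0.403.

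Itgax, which encodes alphaX (CD11c) of dendritic cells and macrophages, had 4.78, 3.06 and 2.72 at 0 h, 7.28, 3.64 and 5.11 at 12 h and 4.04, 3.37 and 4.05 at 48 h in Sdc4-/- arrays. In WT arrays it was at 2.37 and 3.24, then 2.48, 2.82 and 2.81, then 2.43, 2.61 and 2.71, near background throughout. At 12 h Itgax was higher in Sdc4-/- than in WT cells by 2.64 (standard error 0.74, adjusted p = 0.0277), with no overlap, although the 3 Sdc4-/- arrays differed widely. The call was lost without Sdc4-/- 12 h replicate 1 (1.67, adjusted p = 0.081) or 3 (2.76, adjusted p = 0.0529) and without any of the WT 12 h replicates (2.53 to 2.70, adjusted p = 0.0555 to 0.0601). Only leaving out Sdc4-/- 12 h replicate 2 kept it. It was also lost in a fit of only the groups compared (adjusted p = 0.19), with array weights (0.1) and with the hybridization-control covariate (0.371).

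Itgb7, the beta partner of alpha4 and alphaE on lymphocytes, was called in 0 of 11 comparisons. It had 6.51, 6.65 and 7.22 at 0 h, 4.91, 4.90 and 5.27 at 12 h and 6.24, 7.27 and 6.32 at 48 h in Sdc4-/- arrays, and 3.82 and 5.09, then 3.20, 4.99 and 7.68, then 4.85, 5.97 and 4.94 in WT arrays. Uninjured Sdc4-/- arrays were all above the uninjured WT arrays, with a difference of 2.34 (standard error 0.93, adjusted p = 0.271), and the WT 12 h arrays spanned more than the other groups. Itgal (alphaL of LFA-1) and Itgae (alphaE), both subunits of lymphocyte integrins, had no group mean of 5 and no call.

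Markers of leukocytes were summed on the same arrays. The summed level of the 10 macrophage markers (log2 of the summed linear values) lay at 15.37 to 15.73, 14.27 to 14.54 and 15.05 to 15.48 in Sdc4-/- arrays at 0, 12 and 48 h, against 11.22 to 14.47, 8.01 to 10.05 and 15.29 to 15.37 in WT arrays. At 12 h 8 of 10 macrophage markers were higher in Sdc4-/- than in WT cells and 0 lower (background 8.68% and 10.4%). In WT cells 10 of 10 rose at 48 h relative to 12 h (background 9.27% higher and 5.9% lower). The 9 matched neutrophil markers summed to 12.08 to 13.6, 12.18 to 14.47 and 7.91 to 8.84 in Sdc4-/- arrays and to 9.45 to 10.08, 6.95 to 13.15 and 9.22 to 10.66 in WT arrays. Their Cxcr2 and Mmp8 had no group mean above 5. Of these 9 markers 1 was higher and 0 lower in Sdc4-/- than in WT cells at 12 h. In WT cells 0 rose and 0 fell at 48 h relative to 12 h. In WT cells the macrophage sum and the means of Itgb2 (5.15, 4.68 and 8.91 at 0, 12 and 48 h) were both lowest at 12 h and highest at 48 h. Itgb2 itself was not called at 12 h against uninjured WT cells (-0.47, adjusted p = 0.688), and these groups overlapped. Among Sdc4-/- arrays Itgb2 and the macrophage sum differed in order. There Itgb2 averaged 7.40, 8.77 and 9.91, while the macrophage sum was lowest at 12 h and the neutrophil sum at 48 h. The part of macrophages or neutrophils in the values of Itgb2, Itgam and Itgax was not tested.

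**Figure D3:**
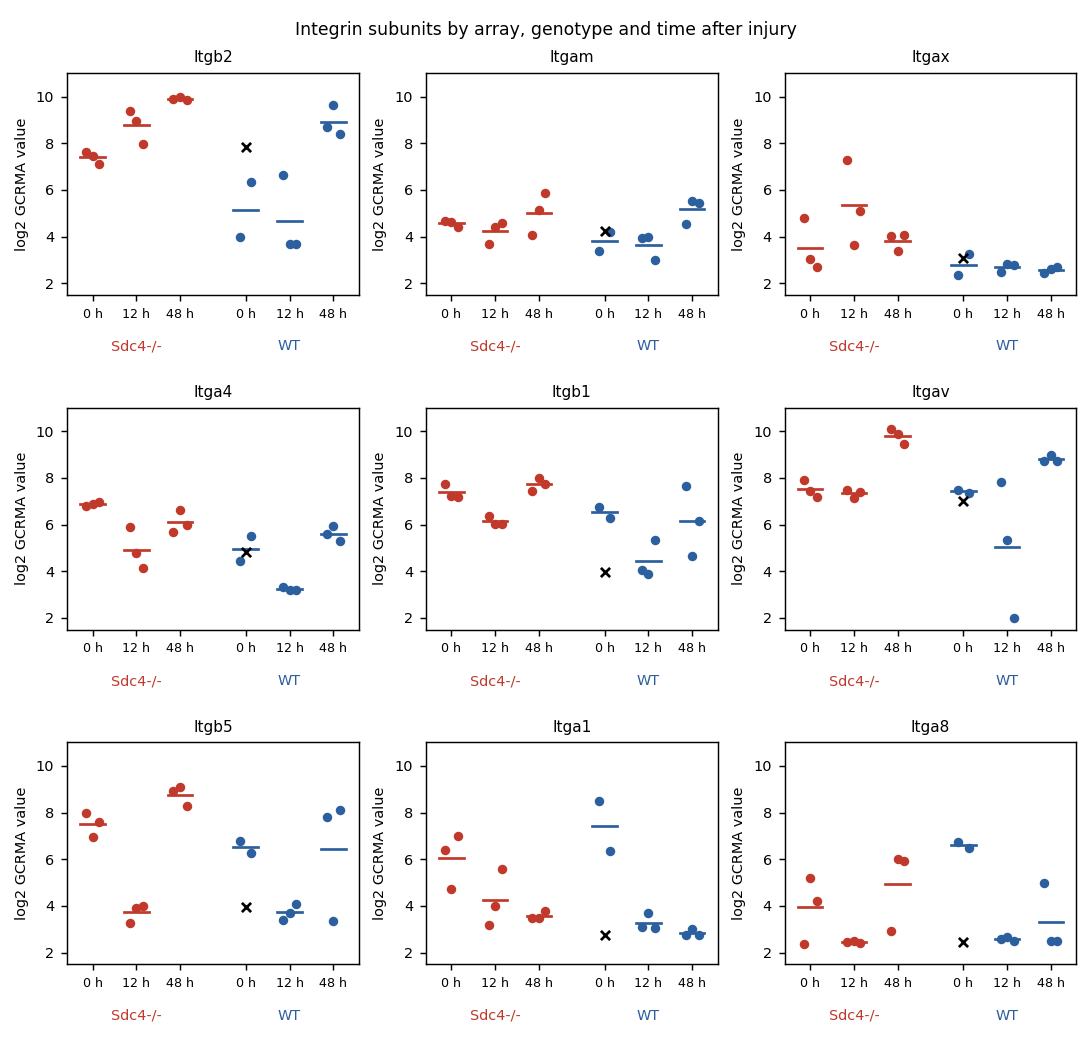
Log2 GCRMA values of integrin subunits (vertical axis) in each array by genotype and time (horizontal axis), with a point for each array, a line at each group mean and replicate 3 of uninjured WT cells marked apart. Itgb2 at 12 h is between 7.98 and 9.39 in Sdc4-/- arrays and between 3.68 and 6.65 in WT arrays.

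Itga4 encodes alpha4, which pairs with beta1 in VLA-4, a receptor for Vcam1 and fibronectin on leukocytes and myogenic cells. It fell at 12 h in both genotypes and was higher in Sdc4-/- than in WT cells in uninjured muscle and at 12 h. Its values were 6.81, 6.89 and 6.96 at 0 h, 5.88, 4.77 and 4.12 at 12 h and 5.70, 6.63 and 5.98 at 48 h in Sdc4-/- arrays, and 4.43 and 5.51, then 3.34, 3.21 and 3.20, then 5.58, 5.93 and 5.29 in WT arrays. Within each genotype no 12 h array reached the uninjured ones, and in WT cells no 12 h array reached those at 48 h. The 12 h change was -1.96 in Sdc4-/- cells (standard error 0.40, adjusted p = 0.0106) and -1.72 in WT cells (standard error 0.44, adjusted p = 0.0102), and the difference between these changes was -0.24 (standard error 0.60, adjusted p = 0.814). From 12 h to 48 h the WT level rose by 2.35 (standard error 0.40, adjusted p = 0.00218), and the Sdc4-/- level differed by 1.18 (standard error 0.40, adjusted p = 0.12).

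Between genotypes Itga4 was higher in Sdc4-/- cells by 1.92 when uninjured (standard error 0.44, adjusted p = 0.0324) and by 1.67 at 12 h (standard error 0.40, adjusted p = 0.0123), with no overlap, and at 48 h the difference was 0.50 (adjusted p = 0.539). The uninjured call was lost without WT uninjured replicate 1 (1.37) or any of the Sdc4-/- uninjured replicates (1.88 to 1.96, adjusted p = 0.0666 to 0.0717). It was kept in 8 of 12 other settings. Among those that lost it were a minimum mean of 4, quantile normalization (1.70, adjusted p = 0.0846) and a fit of only the groups compared (adjusted p = 0.17). The 12 h calls in Sdc4-/- cells and between genotypes were lost in that fit too (adjusted p = 0.116 and 0.122), as was the Sdc4-/- call after quantile normalization (-1.11, adjusted p = 0.181) and the 12 h genotype call with array weights (adjusted p = 0.0718). The WT 12 h fall was lost without WT uninjured replicate 2 (-1.17, adjusted p = 0.125). The other 3 calls held with each array left out. Of the 4 other Itga4 probe sets, all dim with means under 4, 1 moved in the same direction in the Sdc4-/- 12 h and the uninjured comparison, and 1 was called in the opposite direction in each of the others. Over the mean of all probe sets the WT 12 h, WT 48 h and 12 h genotype calls were lost (-0.08, 0.29 and 0.18). With the hybridization-control covariate they were lost too (-0.23, 1.85 and 0.85). Itga9, the related alpha9 chain, had no group mean of 5 and no call.

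The alpha5 chain, encoded by Itga5, pairs with beta1 as the classical fibronectin receptor. It had 5.64, 5.04 and 4.40 at 0 h, 7.36, 6.18 and 5.24 at 12 h and 6.41, 5.62 and 6.57 at 48 h in Sdc4-/- arrays, against 5.63 and 4.68, then 4.86, 4.43 and 4.35, then 3.96, 5.19 and 3.84 in WT arrays. Sdc4-/- arrays exceeded WT arrays without overlap at 12 h and 48 h and overlapped them when uninjured. The difference was 1.71 at 12 h (standard error 0.54, adjusted p = 0.0457), 1.87 at 48 h (standard error 0.54, adjusted p = 0.069) and -0.13 in uninjured cells. The 12 h call was lost without WT 12 h replicate 1, 2 or 3 (1.87, 1.66 and 1.61) or Sdc4-/- 12 h replicate 1 or 2 (1.16 and 1.76), with adjusted p = 0.0541 to 0.168. It was also lost in 6 of 12 other settings, among them a further quantile normalization (1.11, adjusted p = 0.216) and the mean of all probe sets (0.08, adjusted p = 0.71). Of the 3 other Itga5 probe sets, all dim, 1 was called in the opposite direction.

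Itgav encodes alphav, the shared partner of several beta chains in receptors for vitronectin, fibronectin and latent TGF-beta. It had 7.93, 7.44 and 7.19 at 0 h, 7.48, 7.13 and 7.39 at 12 h and 10.11, 9.87 and 9.45 at 48 h in Sdc4-/- arrays. WT arrays had 7.48 and 7.37, then 7.84, 5.34 and 1.99, then 8.72, 8.98 and 8.73. In both genotypes each 48 h array was above every array of the other times, and the WT 12 h arrays were spread from background to the level of uninjured cells. In WT cells Itgav rose at 48 h relative to 12 h by 3.75 (standard error 0.99, adjusted p = 0.0267). The same difference in Sdc4-/- cells was 2.47 (standard error 0.99, adjusted p = 0.202), and relative to uninjured cells it was 2.29 (adjusted p = 0.292). The WT call was lost without WT 12 h replicate 2 (3.89, adjusted p = 0.0556) or any of the WT 48 h replicates (3.67 to 3.80, adjusted p = 0.0669 to 0.0726). It was kept without WT 12 h replicate 3, the array at 1.99, where the difference was 2.22, and without replicate 1, where it was 5.15. It was lost in a fit of only the groups compared (adjusted p = 0.296), after quantile normalization (2.12, adjusted p = 0.378), over the mean of all probe sets (0.65, adjusted p = 0.0715) and with the hybridization-control covariate (3.71, adjusted p = 0.226). Of the 4 other Itgav probe sets, all dim, 1 was called in the opposite direction in that WT comparison. For Sdc4-/- 48 h against uninjured cells 1 was called higher (2.20, adjusted p = 0.00697), with group means of 4.72 and 2.52. The others were not called there.

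Itgb5, which encodes beta5, the alphav partner in a vitronectin receptor, had the widest range of group means among the 29 genes in Sdc4-/- cells. It had 7.99, 6.95 and 7.61 at 0 h, 3.28, 3.92 and 4.00 at 12 h and 8.90, 9.11 and 8.29 at 48 h in Sdc4-/- arrays, and 6.78 and 6.27, then 3.41, 3.69 and 4.07, then 7.81, 3.33 and 8.12 in WT arrays. In Sdc4-/- cells the 12 h arrays lay well below those of both other times, and WT cells had the same order except for WT 48 h replicate 2, which was as low as the 12 h arrays. In Sdc4-/- cells Itgb5 fell by 3.78 at 12 h (standard error 0.93, adjusted p = 0.0302) and was 5.04 higher at 48 h than at 12 h (standard error 0.93, adjusted p = 0.00698). The 48 h call held in all 12 other settings and with each array left out, and all 3 other Itgb5 probe sets rose as well. The 12 h call was lost without any of the 6 arrays compared (adjusted p = 0.0562 to 0.103, differences of -4.07 to -3.55), with all 18 arrays (adjusted p = 0.0537), after quantile normalization (-3.13, adjusted p = 0.0744) and with the hybridization-control covariate (adjusted p = 0.0644). In WT cells the 12 h change was -2.80 (standard error 1.04, adjusted p = 0.0516), and the 48 h level differed from 12 h by 2.69 (adjusted p = 0.084). Of the 3 other Itgb5 probe sets 2 were called lower at 12 h in WT cells (-3.82, adjusted p = 0.00252, and -2.04, adjusted p = 0.0136) and 1 in Sdc4-/- cells (-2.74, adjusted p = 0.0338). At 48 h relative to uninjured Sdc4-/- cells 2 of them were called higher (1.76, adjusted p = 0.00933, and 3.04, adjusted p = 0.00404), where the probe set with the highest mean differed by 1.25 (adjusted p = 0.678). Genotypes differed by 0.01 at 12 h (standard error 0.93, adjusted p = 0.996), and the changes at 12 h by -0.98 (adjusted p = 0.671).

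Itga8, the alpha8 chain of mesenchymal and smooth muscle cells, fell at 12 h in WT cells. It had 2.38, 5.22 and 4.22 at 0 h, 2.47, 2.49 and 2.42 at 12 h and 2.92, 6.00 and 5.92 at 48 h in Sdc4-/- arrays, against 6.72 and 6.47, then 2.60, 2.66 and 2.52, then 4.99, 2.50 and 2.49 in WT arrays. At 12 h all arrays of both genotypes were near background, and at 48 h each genotype held arrays near and above it. The WT 12 h change was -4.01 (standard error 1.00, adjusted p = 0.00824) and the WT 48 h change -3.27 (adjusted p = 0.0508). The 12 h call was lost without WT uninjured replicate 1 (-3.88, adjusted p = 0.0551), with array weights (adjusted p = 0.0502), with the hybridization-control covariate (-0.81, adjusted p = 0.93) and with all 18 arrays (-2.63, adjusted p = 0.115), where the removed replicate 3 had 2.47. The other, dim probe set of Itga8 was called in the opposite direction. The Sdc4-/- 12 h change was -1.47 (adjusted p = 0.385). The difference between the changes was 2.53 (adjusted p = 0.246). Itga2b, the alphaIIb chain of platelets, and the beta chains Itgb3, Itgb6 and Itgb8, which pair with alphav, had no group mean of 5 and no call.

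Among the collagen-binding chains Itga1, which encodes alpha1, fell after injury in WT cells. It had 6.39, 4.74 and 7.01 at 0 h, 3.17, 4.01 and 5.59 at 12 h and 3.48, 3.47 and 3.76 at 48 h in Sdc4-/- arrays, and 8.48 and 6.36, then 3.12, 3.68 and 3.05, then 2.75, 3.03 and 2.75 in WT arrays. In WT cells the uninjured arrays were far above all injured ones, and in Sdc4-/- cells 12 h replicate 3 lay among the uninjured arrays. The WT changes were -4.14 at 12 h (standard error 0.76, adjusted p = 0.00133) and -4.58 at 48 h (standard error 0.76, adjusted p = 0.00225). Both kept their calls with each array left out. With all 18 arrays they were lost (-2.58, adjusted p = 0.103, and -3.02, adjusted p = 0.216), the removed replicate 3 being at 2.76, and the 12 h call was lost with the hybridization-control covariate (-7.89, adjusted p = 0.058). The Sdc4-/- changes of Itga1 were -1.79 (adjusted p = 0.159) and -2.47 (adjusted p = 0.0633), and the differences in change between genotypes were 2.34 (standard error 1.02, adjusted p = 0.164) and 2.10 (standard error 1.02, adjusted p = 0.303). Itga2 and Itga10, the alpha2 and alpha10 chains, stayed near background with group means of 2.34 to 2.54 and 2.66 to 3.23, and their calls rest on differences of -0.57 to 0.55.

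Markers of other resident cells of muscle were summed likewise. The summed level of 7 fibroblast markers was 9.09 to 11.21, 6.89 to 10.29 and 5.91 to 9.44 at 0, 12 and 48 h in Sdc4-/- arrays, and 12.05 to 12.49, 6.73 to 8.93 and 6.14 to 7.47 in WT arrays. The 6 markers of pericytes and smooth muscle summed to 10.3 to 12.92, 8.22 to 11.04 and 7.61 to 10.06 in Sdc4-/- arrays and to 12.6 to 14.17, 9.94 to 12.3 and 8.14 to 9.99 in WT arrays. The 8 endothelial markers summed to 8.56 to 9.61, 6.61 to 8.93 and 6.42 to 8.09 in Sdc4-/- arrays and to 9.97 to 11.78, 6.89 to 8.78 and 7.25 to 8.36 in WT arrays, with Pecam1 and Tie1 under 5 in every group mean. In WT cells these 3 sums were highest in the uninjured arrays, as were Itga1, Itga8 and Itgbl1. Sdc4-/- means of Itga8 were 3.94, 2.46 and 4.95, highest at 48 h, where the ranges of these 3 sums were lowest. At 12 h in WT cells 4 fibroblast, 4 pericyte and smooth muscle and 4 endothelial markers were called lower than in uninjured cells. Of the 10 satellite cell markers 5 were called lower there, and 0 of any of these lists higher (background 20.8% lower and 19.6% higher). At 48 h 5, 4, 4 and 4 markers of these lists were lower, and 1 satellite cell marker was higher (background 9.39% and 5.47%). The part of any of these cell types in the fall of Itga1, Itga8 and Itgbl1 was not tested.

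**Figure D4:**
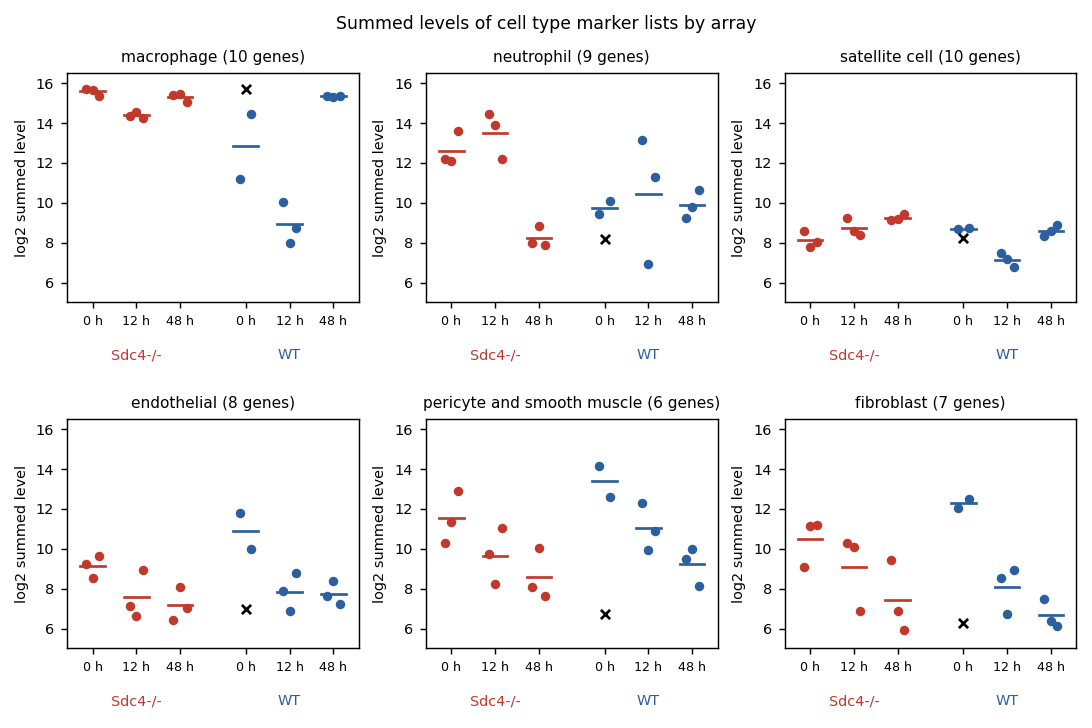
Summed level of cell type marker lists (vertical axis, log2 of the summed linear values) in each array by genotype and time (horizontal axis), with each point an array. The macrophage markers are lowest in WT 12 h arrays (8.01 to 10.05), and the fibroblast markers highest in WT uninjured arrays (12.05 to 12.49).

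Itgb1 encodes beta1, the partner of the laminin- and collagen-binding alpha chains and of alpha4 and alpha5. It had 7.74, 7.24 and 7.16 at 0 h, 6.38, 6.03 and 6.04 at 12 h and 7.43, 8.01 and 7.75 at 48 h in Sdc4-/- arrays, against 6.75 and 6.30, then 4.05, 3.90 and 5.33, then 7.67, 4.66 and 6.14 in WT arrays. In Sdc4-/- cells every 12 h array was below the arrays of both other times. In WT cells every 12 h array was below the uninjured arrays, while 48 h replicate 2 lay within the 12 h range. The WT 12 h change was -2.10 (standard error 0.66, adjusted p = 0.0257) and the Sdc4-/- 12 h change -1.23 (standard error 0.59, adjusted p = 0.272), with a difference between them of 0.87 (standard error 0.88, adjusted p = 0.544). The WT call was lost if replicate 1 or 2 of the uninjured (-1.87 and -2.32) or of the 12 h arrays (-1.91 and -1.84) was left out, with adjusted p = 0.0619 to 0.139. It was lost in 6 of 12 other settings, among them all 18 arrays (-1.25, adjusted p = 0.233), quantile normalization (-1.01, adjusted p = 0.362), the mean of all probe sets (-0.15, adjusted p = 0.531) and the hybridization-control covariate (-1.09, adjusted p = 0.858). Of the 5 other Itgb1 probe sets, 2 dim ones with means under 4 were called in the opposite direction, and the only one with a mean above 4 differed by -1.54 (adjusted p = 0.0899). At 12 h Itgb1 was 1.72 higher in Sdc4-/- than in WT cells (standard error 0.59, adjusted p = 0.0639), with no overlap, which did not pass the test.

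By their probe sets with the highest mean, the laminin-binding chains were called in 0 of 11 comparisons. Itga6, the alpha6 chain found on many stem and endothelial cells, had 7.14, 6.15 and 7.58 at 0 h, 4.56, 5.34 and 8.67 at 12 h and 8.33, 8.54 and 7.36 at 48 h in Sdc4-/- arrays, and 9.34 and 7.62, then 8.32, 2.93 and 6.17, then 7.62, 4.90 and 6.90 in WT arrays. The 12 h arrays of both genotypes were widely spread, and the WT 12 h change of -2.68 had a standard error of 1.47 (adjusted p = 0.167). Itga7, the alpha7 chain of the laminin receptor of muscle, had 3.01, 3.46 and 3.13 at 0 h, 3.05, 3.05 and 3.05 at 12 h and 3.04, 3.22 and 3.03 at 48 h in Sdc4-/- arrays, against 4.34 and 3.06 in uninjured WT arrays and 3.06 to 3.18 in the injured ones. All but WT uninjured replicate 1 were near background, and the WT 12 h difference was -0.59 (adjusted p = 0.0924). Itga3, the alpha3 chain of epithelia, had group means of 3.79 to 4.94, and its 12 h changes differed between genotypes by 1.60 (standard error 0.49, adjusted p = 0.0539). Both other Itga3 probe sets, which were dim, were called higher at 12 h in WT cells (0.64, adjusted p = 0.0223, and 0.26, adjusted p = 0.036). The former was also lower in Sdc4-/- than in WT cells at 12 h (-0.61, adjusted p = 0.03). Itgb4, the alpha6 partner in epithelial hemidesmosomes, had no group mean of 5 and no call.

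Among the name-matched genes, Itgbl1 encodes a secreted protein with beta-integrin-like repeats. Its values were 3.35, 5.56 and 5.74 at 0 h, 2.87, 3.21 and 3.08 at 12 h and 2.70, 2.78 and 2.82 at 48 h in Sdc4-/- arrays. WT arrays had 5.59 and 7.59, then 3.05, 3.36 and 3.14, then 2.95, 2.97 and 2.93. In both genotypes all uninjured arrays were above all injured ones. The WT changes were -3.41 at 12 h (standard error 0.62, adjusted p = 0.00133) and -3.65 at 48 h (standard error 0.62, adjusted p = 0.00278), and they kept their calls with each array left out. They were lost with all 18 arrays (-2.22, adjusted p = 0.0795, and -2.45, adjusted p = 0.203), the removed replicate 3 being at 3.02, and with the hybridization-control covariate (-2.19 and -2.84). The 48 h call was also lost in a fit of only the groups compared (adjusted p = 0.0537). The Sdc4-/- changes were -1.83 (adjusted p = 0.0786) and -2.11 (adjusted p = 0.0539), and the differences in change were 1.58 (adjusted p = 0.248) and 1.53 (adjusted p = 0.364).

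Itgb1bp1 encodes ICAP-1, a protein that binds the beta1 tail and restrains integrin activation. It had 4.31, 4.31 and 3.78 at 0 h, 4.62, 4.02 and 3.67 at 12 h and 5.87, 6.10 and 5.64 at 48 h in Sdc4-/- arrays, against 3.92 and 4.76, then 5.07, 4.61 and 5.25, then 4.69, 4.91 and 4.61 in WT arrays. The Sdc4-/- 48 h arrays were above every other array of either genotype. Itgb1bp1 rose in Sdc4-/- cells at 48 h by 1.74 relative to uninjured cells (standard error 0.28, adjusted p = 0.00327) and by 1.77 relative to 12 h (standard error 0.28, adjusted p = 0.00267). The change relative to uninjured cells was called in all 12 other settings and with each array left out, and the one relative to 12 h was lost only after quantile normalization (0.88, adjusted p = 0.208). In WT cells the 48 h change was 0.40 (adjusted p = 0.43), and the difference in change was 1.34 (standard error 0.42, adjusted p = 0.1). At 48 h the level was higher in Sdc4-/- than in WT cells by 1.13 (standard error 0.28, adjusted p = 0.0365). That call was lost without any of the 6 arrays compared (1.02 to 1.25, adjusted p = 0.0672 to 0.121) and after quantile normalization (0.16). At 12 h it was lower in Sdc4-/- cells (-0.88, adjusted p = 0.0473), with overlapping groups, and that call was lost in 10 of 12 other settings and if Sdc4-/- replicate 2 or 3 or WT replicate 1 or 3 of that time was left out (-0.83 to -0.66, adjusted p = 0.0948 to 0.157).

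The 15 genes with no group mean of 5 had array values between 2.28 and 6.03, and 11 of the 29 genes had no array of the 17 at 5. Their calls concerned Itga2, Itga10, Itgb1bp2 (melusin, a muscle protein that binds beta1) and Itgb3bp, a centromere protein first found through beta3. Itgb1bp2 was higher at 12 h than in uninjured WT cells by 1.35 (adjusted p = 0.0355), with group means of 3.68 and 2.33. Itgb3bp had group means of 3.63, 3.32 and 3.17 at 0, 12 and 48 h in Sdc4-/- cells and of 2.70, 4.08 and 3.59 in WT cells. It was called higher at 12 h (1.38, adjusted p = 8.83e-04) and at 48 h (0.89, adjusted p = 0.0289) in WT cells. Between genotypes it was called higher in uninjured Sdc4-/- cells (0.94, adjusted p = 0.0496) and lower in Sdc4-/- cells at 12 h (-0.76, adjusted p = 0.0281). Levels this close to background have no reliable order. Of 11 other settings, the WT 12 h calls of Itga2 and Itgb1bp2 were each kept in 5, with Itga2 at 0.06 after quantile normalization (adjusted p = 0.473). The Itgb3bp calls were kept in 10 (WT 12 h), 7 (WT 48 h), 6 (genotypes at 12 h) and 1 (genotypes, uninjured) of them, and over the mean of all probe sets the uninjured difference was 0.20 (adjusted p = 0.404). Of the 4 other Itgb3bp probe sets 3, 1, 3 and 0 were called in the same direction in these comparisons, and 0 in the opposite one. The Itga2 call was lost if either uninjured WT array or 12 h replicate 3 was left out (0.14 to 0.20, adjusted p = 0.0614 to 0.0944), and the Itgb1bp2 call without either uninjured array or 12 h replicate 2 or 3 (0.88 to 1.36, adjusted p = 0.0869 to 0.127). For Itgb3bp the WT 48 h call was lost if replicate 1 or 2 of either group was left out (0.79 to 0.99, adjusted p = 0.0531 to 0.185). Its uninjured genotype call was lost without WT uninjured replicate 1 or 2 (0.83 and 1.04, adjusted p = 0.32 and 0.0993), and its 12 h genotype call without replicate 2 or 3 of either genotype (-0.75 to -0.69, adjusted p = 0.0609 to 0.0951).

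Genes that act with integrins were counted from lists, and the examples named were picked after their values were seen. Here and in the next paragraph the examples are given from the main fit only, without left-out arrays or other settings. Their calls are therefore not to be taken as firmer than those of the integrin genes. Of 23 matched genes for integrin activation and cytoplasmic linkage, 0 rose and 13 fell at 12 h relative to uninjured WT cells (median -2.20, all genes 0.09, background 19.6% and 20.8%), and 6 rose and 0 fell at 48 h relative to 12 h (median 0.58, background 9.27% and 5.9%). Among Sdc4-/- cells 0 rose and 1 fell at 12 h (median -0.36, background 1.48% and 7.23%), and 4 rose and 0 fell at 48 h relative to 12 h (background 7.61% and 0.819%). Between genotypes at 12 h 7 were higher in Sdc4-/- cells and 0 lower (median 0.62, all genes -0.08, background 8.68% and 10.4%). Fermt3, the kindlin of blood cells, averaged 10.68, 8.84 and 10.53 in Sdc4-/- cells and 6.38, 5.43 and 11.07 in WT cells, and differed between genotypes at 12 h by 3.41 (adjusted p = 0.0426). Pxn, the focal adhesion adaptor paxillin, averaged 10.64, 10.69 and 10.19 in Sdc4-/- cells and 9.82, 6.45 and 9.18 in WT cells, with a 12 h genotype difference of 4.24 (adjusted p = 0.00746).

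The ligand lists are read against the same background at 12 h, 19.6% higher and 20.8% lower in WT cells and 1.48% and 7.23% in Sdc4-/- cells. Of 7 matched RGD proteins 2 rose and 4 fell at 12 h in WT cells, and 1 rose and 1 fell in Sdc4-/- cells. Fn1, which encodes fibronectin, the ligand of alpha5 and alpha4, averaged 9.26, 9.64 and 10.91 in Sdc4-/- cells and 8.75, 3.72 and 11.08 in WT cells. It was lower at 12 h than in uninjured WT cells (-5.03, adjusted p = 1.78e-04), and higher in Sdc4-/- than in WT cells at 12 h by 5.93 (adjusted p = 7.24e-05). Vcam1, a surface ligand of alpha4, followed a like course, with 5.08, 6.97 and 7.13 in Sdc4-/- cells and 7.21, 3.27 and 7.24 in WT cells and a 12 h genotype difference of 3.70 (adjusted p = 0.00129). Of 10 matched laminin genes 3 rose and 2 fell at 12 h in WT cells, and 1 rose and 0 fell in Sdc4-/- cells. Lamb2, the beta2 laminin chain of muscle basement membrane, was lower in Sdc4-/- than in WT cells at 12 h, with means of 4.27 and 5.67 (difference -1.40, adjusted p = 0.0209). Of 6 matched surface ligands 2 rose and 3 fell at 12 h in WT cells, and 0 rose and 1 fell in Sdc4-/- cells.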

How the data were processed

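Affymetrix mouse arrays were hybridized with amplified RNA from cells sorted by FACS for syndecan-3, with 18 arrays in 6 groups. The authors read intensities with GCOS and normalized them by GCRMA, with versions not given in the sources used here, and the log2 values as deposited by the authors were analysed without further normalization. The removed WT uninjured array was taken to be replicate 3. The other 17 arrays entered 1 limma fit of the 6 groups (limma 3.58.1, R 4.3.3, lmFit and eBayes, 11 residual degrees of freedom, prior 1.2), with Benjamini-Hochberg adjustment over 45101 probe sets and calls at an adjusted p under 0.05. The number of arrays limits the precision. By the annotation of the array 34958 probe sets have 1 symbol, 932 several and 9211 none, and symbols were not updated. Shares and medians over all genes use 1 probe set for each of 18194 symbols, the one with the highest mean. Genes were named by a rule: values in every array for genes with a group mean of at least 5 and a call, and for Itga7, Itgb1, Itga4, Itgam and Itgb2, with the others given by ranges and counts, to which Itga6 and Itgb7 were added after their values were seen. The genes and the lists were chosen with earlier results of these data known. The lists were markers of satellite cells, macrophages, neutrophils, T and NK cells, platelets, endothelium, fibroblasts, pericytes and smooth muscle, muscle fibres and Schwann cells, and genes of integrin activation and linkage, laminins, RGD proteins and surface ligands. Promoters were those of RefSeq. The alternatives used every one of the 18 arrays, fits restricted to the groups compared, an eBayes prior with trend and robust, array weights, a further quantile normalization, scaling to a common 75th percentile, a minimum mean of 4, no moderation, a threshold of at least 2-fold with an unadjusted p of 0.01 or less, the replicate number as a block, averages over a gene's probe sets, a covariate made of the mean over 18 control probe sets for hybridization, and leaving out single arrays, which gives a lone WT uninjured array the spread of the other groups. The fit was tested on simulated data.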

Additional observations from a re-analysis of the deposited data

Results flagged for a closer look

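The change after injury differed between genotypes by the test of the difference itself for 2 genes, both dim, with means below 5 in all 6 groups. For Itga10, the alpha10 chain of a collagen receptor, the 12 h change in Sdc4-/- minus that in WT cells was 0.55 (adjusted p = 0.00217) and the 48 h one 0.51 (adjusted p = 0.00548). Its group means were 2.66, 2.75 and 2.67 at 0, 12 and 48 h in Sdc4-/- cells and 3.23, 2.77 and 2.73 in WT cells. For Itgb3bp, a centromere protein, the same differences were -1.69 (adjusted p = 0.00607) and -1.36 (adjusted p = 0.034), with group means of 3.63, 3.32 and 3.17 in Sdc4-/- cells and 2.70, 4.08 and 3.59 in WT cells. With all 18 arrays 0 of these 4 differences were called, and with the hybridization-control covariate also 0. The 48 h difference of Itgb3bp was lost if any of the Sdc4-/- 48 h arrays, or replicate 1 or 2 of the WT 48 h or uninjured arrays, was left out (-1.46 to -1.26, adjusted p = 0.0516 to 0.13).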

How the results depend on the processing

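Counts of called integrin genes follow, beside the counts given above. With all 18 arrays 2 were called for WT 12 h against uninjured cells and 0 for WT 48 h, 1 for Sdc4-/- 12 h, 1 between genotypes when uninjured, 0 at 48 h and 0 for both differences in change. In fits of only the groups compared the counts were 1 for WT 48 h against 12 h, 3 and 5 for Sdc4-/- 48 h against uninjured and 12 h, 0, 1 and 2 between genotypes at 0, 12 and 48 h, and 1 for the 48 h difference in change. Array weights gave 5 and 5 for Sdc4-/- 48 h and 1 and 3 between genotypes at 12 and 48 h, and trend and robust gave 2 for Sdc4-/- 48 h against uninjured and 0 between genotypes at 48 h. Quantile normalization gave 1 between genotypes when uninjured, 0 at 48 h and 1 for the 48 h difference in change. The shift by the 75th percentile gave 15 and 9 for WT 12 h and 48 h against uninjured, 12 for Sdc4-/- 12 h, 7 for Sdc4-/- 48 h against 12 h, 6 between genotypes at 48 h and 1 for the 48 h difference in change. With probe sets of a mean of at least 4, which removes the dim genes, the counts were 4 and 2 for WT 12 h and 48 h, 3 for Sdc4-/- 48 h, 0 and 2 between genotypes at 0 and 48 h and 0 for both differences in change. Without moderation 1 was called between uninjured genotypes. The 2-fold threshold gave 4 and 4 for Sdc4-/- 12 h and 48 h and 1 and 2 between genotypes at 0 and 48 h. The mean of all probe sets gave 2 for WT 48 h against 12 h, 4 for Sdc4-/- 48 h against uninjured and 2 between genotypes at 48 h. The hybridization-control covariate, which varied with group, gave 0, 1 and 0 in the WT comparisons. Between genotypes it gave 0 at 12 h and at 48 h, and it gave 0 for both differences in change. The replicate block gave 2 for Sdc4-/- 48 h against uninjured and 1 for the 48 h difference in change, and left the other 9 counts within 1.5 times. Replicate numbers were not treated as pairs: deviations of same-numbered arrays correlated at -0.13 to 0.17, those of other numbers at -0.19 to 0.19, and 5 of 17 arrays correlated best with their own number. Leaving out each array in turn gave 6 to 11 for WT 12 h, 4 to 5 for WT 48 h and 2 to 6 for WT 48 h against 12 h. It gave 1 to 2, 1 to 2 and 2 to 4 for the Sdc4-/- comparisons, and 2 to 3, 3 to 7 and 0 to 1 between genotypes at 0, 12 and 48 h. For the differences in change it gave 2 to 6 at 12 h and 1 to 2 at 48 h. The Itgb5 difference between WT 48 h and uninjured cells, -0.11 and not called, ranged from -0.96 to 1.44 when single arrays were left out and was 1.44 (adjusted p = 0.0401) without WT 48 h replicate 2. The cause of these moves was not tested. Signal near background limits the dim genes, and levels there have no reliable order.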

Other observations

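The removed WT uninjured replicate 3 belongs to no comparison above. Itgb2 was at 7.84 in it, beside 3.97 and 6.33 in the other WT uninjured arrays, Itga1 at 2.76 beside 8.48 and 6.36, Itga8 at 2.47 beside 6.72 and 6.47, and Itgbl1 at 3.02 beside 5.59 and 7.59. Itgb1 had 3.97 beside 6.75 and 6.30, Itgb5 3.95 beside 6.78 and 6.27, and Itga6 4.70 beside 9.34 and 7.62. Its macrophage markers summed to 15.7, above the range of the other WT uninjured arrays (11.22 to 14.47), and its fibroblast markers to 6.29, below theirs (12.05 to 12.49). Its hybridization-control mean was 12.8, and 4512 of its probe sets were above 5.

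Other lists were at low or uneven levels. The 5 matched T and NK cell markers summed to 6.47 to 6.74, 5.13 to 5.15 and 4.87 to 5.2 at 0, 12 and 48 h in Sdc4-/- arrays and to 4.88 to 5.45, 5.1 to 5.23 and 4.98 to 5.07 in WT arrays. The 6 platelet markers summed to 11.44 to 11.95, 10.04 to 12.03 and 12.2 to 13.11 in Sdc4-/- arrays and to 6.93 to 10.69, 5.34 to 6.49 and 12.92 to 13.66 in WT arrays, carried by at most 2 genes with a group mean above 5. The 10 satellite cell markers summed to 7.8 to 8.57, 8.38 to 9.23 and 9.15 to 9.45 in Sdc4-/- arrays and to 8.67 to 8.75, 6.77 to 7.5 and 8.34 to 8.9 in WT arrays. The 6 muscle fibre markers summed to 7.54 to 8.7, 6.44 to 8.66 and 6.71 to 7.77 in Sdc4-/- arrays and to 6.96 to 8.11, 6.8 to 8.95 and 6.97 to 7.94 in WT arrays, and the 2 matched Schwann cell markers to 3.69 to 4.51 over the 17 arrays.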
